A study of Mus musculus with 6 samples.

Results

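The interferon-induced and immunoproteasome genes described here are 42 genes that cells switch on in response to interferons, chosen by symbol. They fall into a gamma-interferon group of 14 genes and a type I group of 28 genes. A probe was annotated to 41 of the 42 (74 probes in all), and 36 genes could be tested, out of 10412 genes tested on the array: 13 of the gamma-interferon group and 23 of the type I group. Ifi44 had no probe in the annotation used and was not analysed here.

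Interferons are secreted proteins of antiviral and antimicrobial defence. Type I interferons (the alpha and beta forms) act through a complex with STAT2 and IRF9 that binds the interferon-stimulated response element (ISRE) and turn on antiviral effectors such as the IFIT, OAS and Mx families. Gamma interferon, made by lymphocytes, acts through the gamma-activated site (GAS), and it drives the transcription factor IRF1, the guanylate-binding proteins, the immunity-related GTPases and the immunoproteasome, the variant of the proteasome that cuts proteins for presentation on MHC class I. The 2 programmes overlap, so the grouping is by the usual main inducer, not exclusive. Fibroblasts and macrophages both keep a low level of this programme running without added interferon.

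The RNA came from lung fibroblasts of 10-week-old mice, of which 3 were wild type (p38+/+, wt) and 3 homozygous for a knock-in allele (p38ki/ki, ki). Cells of both genotypes were grown in DMEM/F12 medium with 15% fetal calf serum and taken at passage 1, with no interferon named in the labels. Each mouse gave 1 Illumina bead array. The labels do not say which p38 kinase gene was altered, what the change was, or the sex of the mice. Between 17601 and 18531 of 45281 probes were detected per array, and mean background-subtracted signals ran from 712.3 to 846.7 on wt arrays and from 519.4 to 694.7 on ki arrays. Precision is limited by having 3 arrays per genotype.

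The labelled cell type was checked against marker genes. All 10 fibroblast markers were detected on every array, Dcn, Fn1 and Col1a1 among them, and 5 of the 10 were lower in ki (Col1a1, Col1a2, Col3a1, Pdgfra and Thy1); their summed normalised intensity was 125480 to 135183 in wt and 106668 to 113098 in ki. Of 17 tested macrophage and pan-leukocyte markers, all were also detected on every array, Lyz2, Laptm5 and C1qb among them, with summed intensities of 195144 to 199546 in wt and 185596 to 192909 in ki. Summed neutrophil markers were 12390 to 13141 in wt and 2860 to 3264 in ki. Of the 7 tested, 3 were detected on every array (S100a8, S100a9 and Elane) and fell; Mpo, Ctsg and Ngp were detected on no ki array and were tested only because of their wt signal. Summed mesothelial markers were 1477 to 1709 in wt and 10221 to 10955 in ki, and the 7 of 8 tested that were detected on every array rose; Krt19 was detected on no wt array and was tested only because of its ki signal. T and NK cells, which make gamma interferon, had 10 markers listed, of which 2 were tested (summed 317.3 to 403.4 in wt, 388.2 to 452.6 in ki). These were Cd3e (6.58 in wt, 6.40 in ki, log2) and Prf1 (8.07 and 8.42), both detected on every array. Neither passed with limma. Prf1 was higher in ki at an unadjusted limma p under 0.05, which 30.5% of all genes tested reached in either direction. Nkg7 was detected on 2 wt arrays and no ki array, and Cd3d, Cd3g, Cd8a, Cd4, Klrb1c, Ncr1 and Gzmb on no array. The probes of Psma1, Psma3, Psma6 and Canx, which cells in general express, were also detected on no array, so an undetected probe does not show that a transcript was absent. In the endothelial list 0 of 5 tested markers passed with limma (3 had an unadjusted p under 0.05, all lower in ki), in the epithelial list 1 of 3 (Cdh1, higher) with Epcam, Sftpc, Sftpb and Foxj1 on no array, and in the dendritic and B cell list 1 of 1 (Siglech, higher) with Flt3, Itgax, Xcr1, Ccr7 and Ms4a1 on no array. Their summed intensities were 1390 to 1480 in wt and 1176 to 1241 in ki for the endothelial list, 315.8 to 418.4 and 661 to 707.8 for the epithelial list, and 57.8 to 62.1 and 75.0 to 85.8 for the dendritic and B cell list. The Y-linked gene Eif2s3y, picked with its values in view, averaged 8.16 in wt and 9.79 in ki (log2), and Xist averaged 10.01 and 9.40. In bulk RNA, fewer cells of a type and less RNA per cell cannot be told apart, and the part of any of these marker differences in the results below was not tested.

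Levels are given as log2 of the normalised intensity. A difference is the ki mean less the wt mean on that scale, over n = 3 mice each, and SE is its standard error. Passing the test means a limma p, adjusted by Benjamini-Hochberg over the 10412 genes, under 0.05. The genotypes differed widely over the array: 1687 genes passed (16.2%), of which 907 were higher in ki (8.71%) and 780 lower (7.49%).

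Against that background, 10 of the 36 tested interferon-induced genes passed (27.8%), 8 higher and 2 lower in ki. The genotypes did not overlap, array by array, for 16 members higher and 4 lower in ki; 38.4% of all genes had no overlap in either direction. In the gamma-interferon group 8 of 13 passed (61.5%): Irgm2, Igtp, Gbp2, Gbp3, Psmb10, Irf1 and Irf8 rose and Nlrc5 fell. In the type I group 2 of 23 passed (8.7%): Ifit2 rose and Trim30a fell. The median difference was 0.39 in the gamma-interferon group, -0.01 in the type I group and 0.01 over all genes, and 12 of 13 gamma-interferon genes but 11 of 23 type I genes had a positive difference (51.0% of all genes did). The changes were small. The 3 members with a fold of 1.5 or more were Gbp3, Bst2 and Isg20, and 8.59% of all genes reached that size. The split between higher and lower depends on the scaling: when each array was scaled to its median over all probes, the median of all genes moved to -0.22, 361 genes were called higher and 1300 lower, and the members' calls became 0 higher and 4 lower (2 and 11 at an unadjusted p under 0.05 with limma). All 8 genes called higher still had a positive difference under that scaling, and 8 of 13 gamma-interferon genes did.

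**Figure D1:**
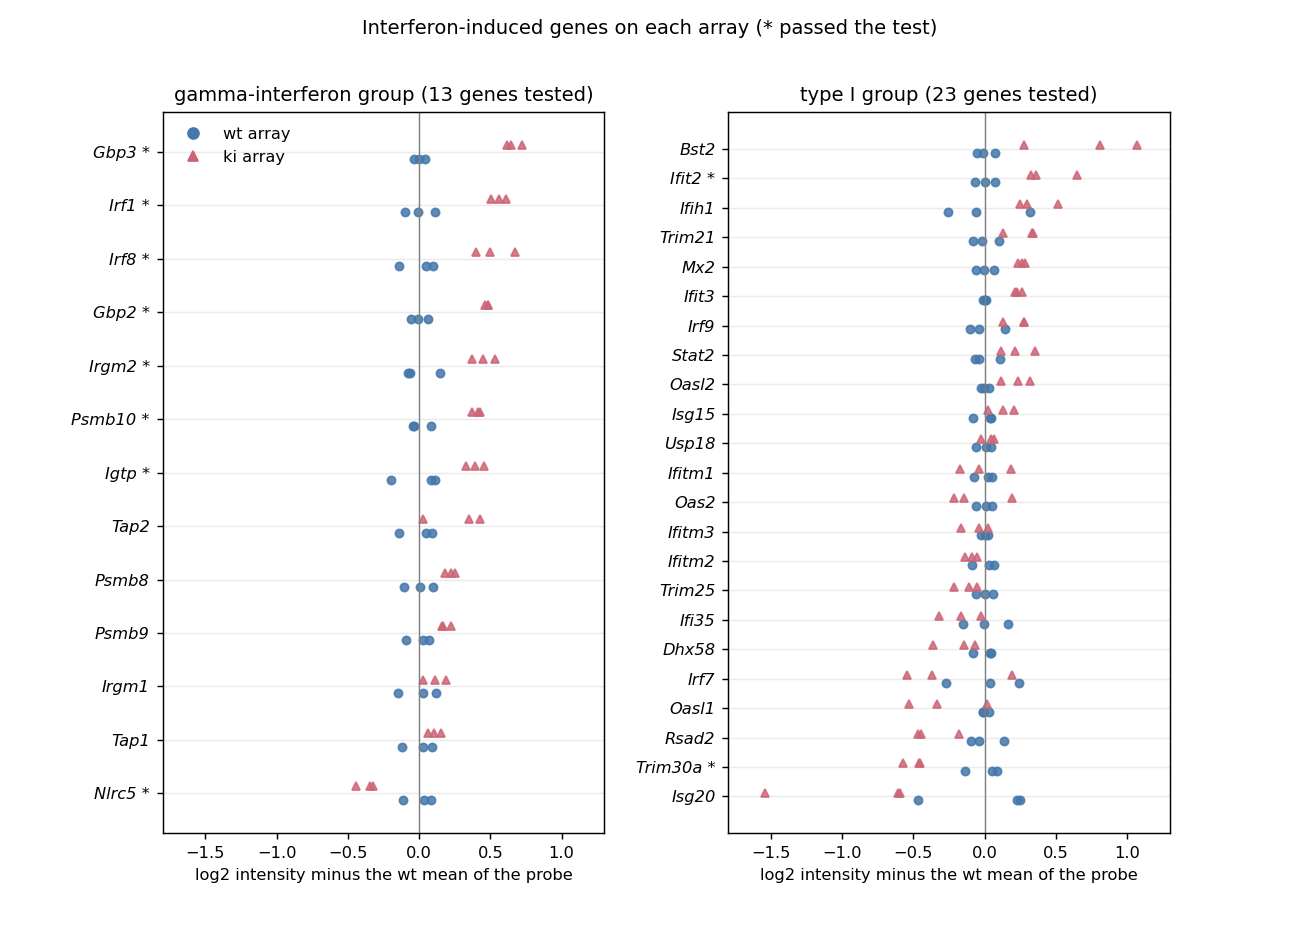
Normalised log2 intensity of each tested interferon-induced gene on each of the 6 arrays, given as the distance from the wt mean of its own probe (horizontal axis, log2), with wt arrays as circles and ki arrays as triangles. In the left panel the ki arrays of 9 gamma-interferon genes lie above all wt arrays and those of Nlrc5 below, whereas type I genes in the right panel scatter to both sides; an asterisk marks genes that passed.

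Several members hold a match to the ISRE, the GAS or both, among them Irgm1, Gbp2, Ifit3, Bst2 and Trim30a, which are not shown. The promoters of 6 others with a match were picked as examples. Each is the 250 bases before the RefSeq transcription start in build GRCm38.p6, read 5′ to 3′ on the gene's strand, with capitals marking a match to the ISRE (GAAA-NN-GAAA, N being any base) or to the GAS (TTC-NNN-GAA), on either strand. Irgm2 (chr11:58214727-58214976, plus strand), Igtp (chr11:58199306-58199555, plus), Gbp3 (chr3:142559794-142560043, plus) and Irf1 (chr11:53769764-53770013, plus) are gamma-interferon genes that rose. Isg15 (chr4:156200819-156201068, minus strand) and Rsad2 (chr12:26456453-26456702, minus) are type I genes that did not pass.
Irgm2: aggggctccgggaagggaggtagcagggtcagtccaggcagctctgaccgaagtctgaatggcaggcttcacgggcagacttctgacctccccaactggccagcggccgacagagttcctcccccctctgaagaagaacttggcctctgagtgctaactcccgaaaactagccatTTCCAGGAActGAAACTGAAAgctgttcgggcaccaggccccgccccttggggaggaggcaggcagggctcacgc
Igtp: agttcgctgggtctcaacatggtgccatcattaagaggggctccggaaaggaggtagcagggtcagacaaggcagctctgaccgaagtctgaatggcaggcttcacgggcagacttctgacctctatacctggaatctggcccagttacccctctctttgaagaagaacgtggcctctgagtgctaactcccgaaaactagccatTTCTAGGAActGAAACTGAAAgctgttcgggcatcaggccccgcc
Gbp3: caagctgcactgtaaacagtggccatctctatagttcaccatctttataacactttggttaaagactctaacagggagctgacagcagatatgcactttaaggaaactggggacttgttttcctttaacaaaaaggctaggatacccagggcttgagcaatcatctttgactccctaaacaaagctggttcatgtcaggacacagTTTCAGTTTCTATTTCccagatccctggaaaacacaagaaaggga
Irf1: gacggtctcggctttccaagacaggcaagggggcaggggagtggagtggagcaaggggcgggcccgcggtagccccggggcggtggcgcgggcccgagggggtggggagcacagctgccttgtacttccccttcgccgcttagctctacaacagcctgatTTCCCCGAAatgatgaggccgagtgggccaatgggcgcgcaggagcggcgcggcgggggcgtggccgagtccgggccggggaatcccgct
Isg15: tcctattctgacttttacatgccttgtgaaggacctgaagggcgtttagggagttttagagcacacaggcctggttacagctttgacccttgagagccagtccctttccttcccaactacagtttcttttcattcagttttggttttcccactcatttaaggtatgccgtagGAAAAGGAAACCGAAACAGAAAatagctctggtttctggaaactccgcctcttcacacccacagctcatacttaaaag
Rsad2: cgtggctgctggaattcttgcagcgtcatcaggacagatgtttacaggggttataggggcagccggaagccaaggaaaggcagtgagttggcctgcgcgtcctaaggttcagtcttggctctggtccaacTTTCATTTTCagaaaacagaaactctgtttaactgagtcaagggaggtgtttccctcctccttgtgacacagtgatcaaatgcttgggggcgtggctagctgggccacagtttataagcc

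The Irgm2 and Igtp windows share a run of 55 identical bases, which lies upstream of the matches and does not include them. In both windows a GAS match lies 2 bases from an ISRE match. The ISRE match begins 64 bases before the start of Irgm2 and 34 bases before that of Igtp. Gbp3 has 2 overlapping ISRE matches, Isg15 has 3, Rsad2 has 1, and the Irf1 window has a GAS match that begins 90 bases before the start. A window was given for 34 of the 42 genes. An ISRE match was present in 15 of these (44.1%), against 3.46% of all 27025 genes with a window, and a GAS match in 9 (26.5%), against 8.13%. ISRE matches were found in 10 of the 23 type I genes with a window (43.5%) and 5 of the 11 gamma-interferon genes (45.5%), and GAS matches in 4 type I genes (17.4%) and 5 gamma-interferon genes (45.5%). Of the 7 gamma-interferon genes that rose, Irgm2, Igtp, Gbp2 and Gbp3 had an ISRE match and Irgm2, Igtp, Irf1 and Irf8 a GAS match, and Psmb10 had neither. The 17 type I genes that were tested and did not pass held an ISRE match in 6 cases (35.3%). Ifit2, the type I gene that rose, had a GAS match and no ISRE match. Trim30a, the type I gene that fell, had an ISRE match and no GAS match. A match is a description of the letters and not evidence of binding, and a window without one may hold a variant of the element.

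Guanylate-binding proteins are large GTPases that assemble on the membranes of pathogen vacuoles. Gbp3 read 9.48, 9.44 and 9.40 on wt arrays 1 to 3 and 10.06, 10.09 and 10.16 on ki arrays 1 to 3. Every ki array was above every wt array, as were 20.3% of all genes, and Gbp3 rose 1.58-fold (difference 0.66, SE 0.0722, limma adjusted p = 0.00171). Its other tested probe differed by 0.67. Gbp2 read 11.15, 11.03 and 11.07 in wt and 11.54, 11.57 and 11.57 in ki. The 3 ki values lay close together above the wt range, and the gene rose 1.39-fold (0.48, SE 0.0714, limma adjusted p = 0.00603). A dimmer second Gbp2 probe did not show this (difference 0.02, SE 0.238), and the mean of both probes did not pass.

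Immunity-related GTPases are smaller relatives that act with the guanylate-binding proteins; Irgm1, Irgm2 and Igtp (also called Irgm3) are the regulatory members and Iigp1 an effector. Irgm2 read 9.64, 9.62 and 9.85 in wt and 10.15, 10.08 and 10.24 in ki. The ranges did not overlap, and Irgm2 rose 1.37-fold (0.45, SE 0.0938, limma adjusted p = 0.0208). Igtp read 8.84, 8.81 and 8.53 in wt and 9.18, 9.06 and 9.12 in ki. Here too the ki arrays lay above the wt arrays, wt 3 being the lowest, and Igtp rose 1.31-fold (0.39, SE 0.104, limma adjusted p = 0.0468). This call was near the threshold: it was lost without any single array, the highest adjusted p being 0.123 without ki 1, and Irgm2 was lost without wt 1, wt 2, ki 1 or ki 3 (limma adjusted p up to 0.0762). The brightest Irgm1 probe differed by 0.11 (SE 0.0957, limma adjusted p = 0.487) with overlapping arrays. A second Irgm1 probe read 9.61, 9.52 and 9.44 in wt and 9.93, 9.97 and 9.98 in ki. Its difference was 0.44 (SE 0.0773, limma adjusted p = 0.0126 over the 15771 tested probes with a gene symbol). The 2 Irgm1 probes thus fell on opposite sides of the threshold. All 4 Iigp1 probes were undetected on every array.

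Irf1 and Irf8 are transcription factors downstream of gamma interferon; Irf8 is also a lineage factor of macrophages and dendritic cells. Irf1 read 11.45, 11.54 and 11.66 in wt and 12.16, 12.05 and 12.11 in ki. The lowest ki array stood above the highest wt array, and Irf1 rose 1.47-fold (0.56, SE 0.0845, limma adjusted p = 0.00632). Its 3 other tested probes differed by 0.59, 0.60 and 0.76, so all 4 were higher in ki. Irf8 read 8.69, 8.74 and 8.50 in wt and 9.04, 9.31 and 9.14 in ki. The ranges did not overlap, and Irf8 rose 1.44-fold (0.52, SE 0.105, limma adjusted p = 0.0187), a call that was lost without wt 1, wt 3, ki 2 or ki 3 (limma adjusted p up to 0.0593). Of the 17 macrophage markers tested beside it, Adgre1 (0.40) and Aif1 (0.43) rose, while Itgam (-0.33), C1qa (-0.33) and C1qc (-0.42) fell, and whether a change among macrophages takes part in the Irf8 difference was not tested.

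The immunoproteasome genes encode the 3 catalytic subunits that replace those of the constitutive proteasome. Psmb10 read 11.013, 11.004 and 11.130 in wt and 11.42, 11.48 and 11.46 in ki. All ki arrays were higher, and Psmb10 rose 1.32-fold (0.40, SE 0.0741, limma adjusted p = 0.0133). Its second tested probe also rose (0.48, limma adjusted p = 0.013 over tested probes with a gene symbol). Psmb8 read 12.10, 11.90 and 12.01 in wt and 12.19, 12.26 and 12.22 in ki (0.22, SE 0.0809, limma adjusted p = 0.12). Psmb9 read 9.67, 9.55 and 9.71 in wt and 9.87, 9.81 and 9.81 in ki (0.19, SE 0.0771, limma adjusted p = 0.161). For both genes the ki arrays lay above the wt arrays by a small margin, and neither passed. The Psmb10 call was lost without wt 1 or wt 2 (limma adjusted p 0.0528 and 0.0552).

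The peptide transporter genes Tap1 and Tap2, which carry proteasome products into the endoplasmic reticulum, differed by 0.11 (SE 0.0835, limma adjusted p = 0.433) and 0.27 (SE 0.127, limma adjusted p = 0.206) with overlapping arrays. Nlrc5, the transactivator of MHC class I genes, went the other way: it read 7.26, 7.45 and 7.40 in wt and 7.04, 7.03 and 6.93 in ki. Every ki array was below every wt array (18.1% of all genes), and Nlrc5 fell by 0.37 on the log2 scale (SE 0.0846, limma adjusted p = 0.0287). That call was lost without any single array other than wt 1 (limma adjusted p up to 0.0974).

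**Figure D2:**
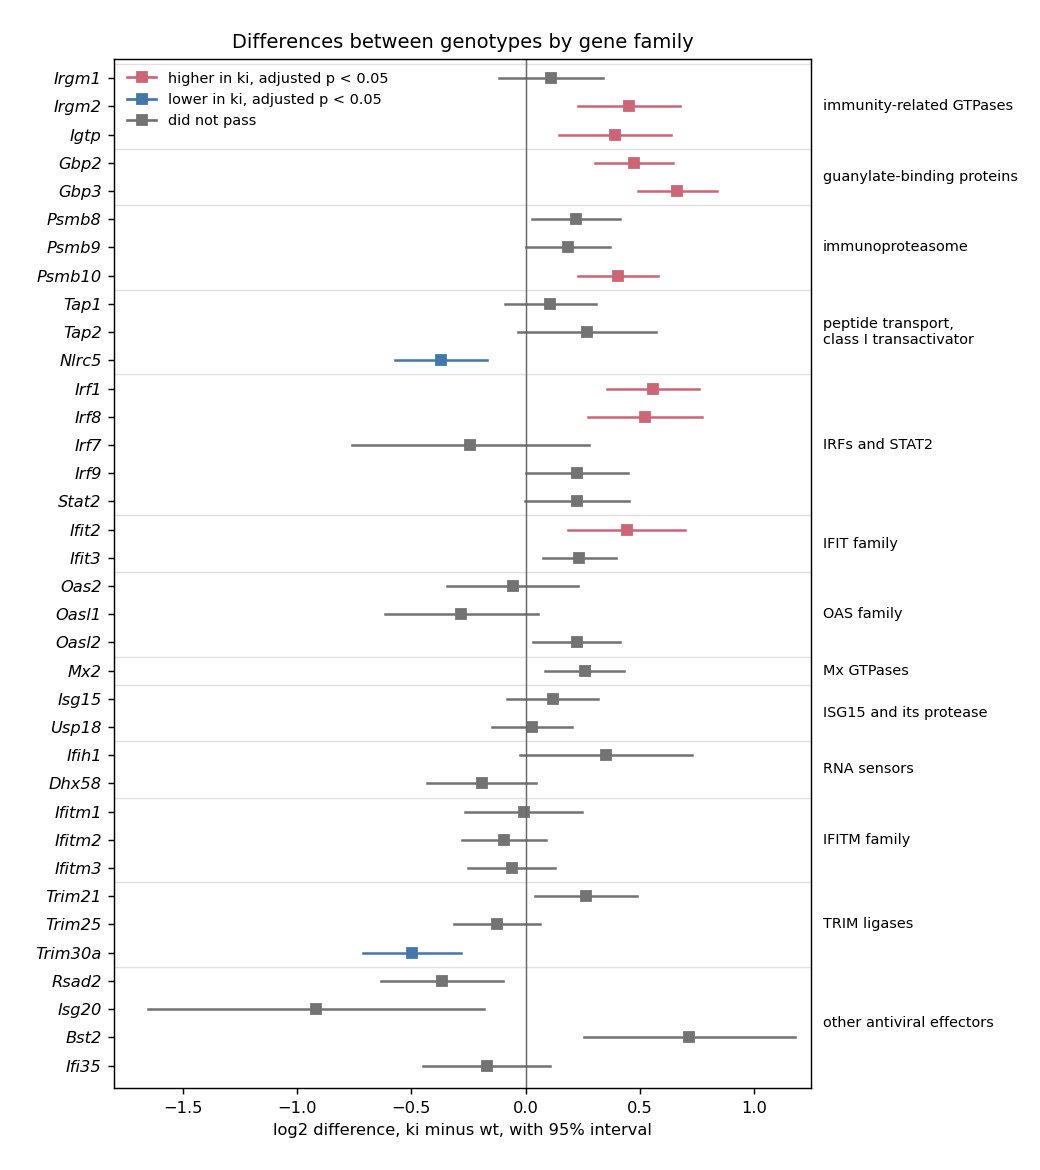
Difference between genotypes (ki minus wt, log2) with its 95% interval for each of the 36 tested genes, ordered by gene family; red marks genes higher in ki, blue genes lower in ki and grey genes that did not pass. Guanylate-binding proteins, Irgm2, Igtp, Psmb10, Irf1 and Irf8 lie to the right of 0, Nlrc5 and Trim30a to the left, and the intervals of Isg20, Bst2 and Irf7 are the widest.

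Type I genes were spread around 0, with differences from -0.92 to 0.72. Of the 23 tested, 7 had every ki array above every wt array and 3 had every ki array below. Among all genes 20.3% and 18.1% did so. An unadjusted limma p under 0.05 was reached by 10 type I genes, against 30.5% of all genes tested. The signal transducers of the type I pathway were not separated by the test: Irf9, the DNA-binding subunit of its complex, differed by 0.23 (limma adjusted p = 0.16), Stat2 by 0.23 (0.165 by the same test), and Irf7, which amplifies interferon production, by -0.24 (0.501). Irf7 varied between mice, at 7.66, 7.46 and 7.15 in wt and 6.87, 7.62 and 7.05 in ki.

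Among the IFIT proteins, which bind foreign RNA, Ifit2 read 8.31, 8.24 and 8.17 in wt and 8.89, 8.60 and 8.56 in ki. The ki arrays were all higher, ki 1 by most, and Ifit2 rose 1.36-fold (0.44, SE 0.108, limma adjusted p = 0.0355). A second tested probe differed by 0.46 (limma adjusted p = 0.0383 over tested probes with a gene symbol). The call was lost without any single array other than ki 3 (limma adjusted p up to 0.107). Ifit3 read 10.27, 10.25 and 10.27 in wt and 10.49, 10.53 and 10.48 in ki (0.23, SE 0.067, limma adjusted p = 0.06). It narrowly missed the threshold although its arrays did not overlap, and its second tested probe differed by 0.01.

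Trim30a, a restrainer of inflammatory signalling in the mouse, read 9.36, 9.17 and 9.39 in wt and 8.74, 8.85 and 8.84 in ki. All ki arrays were lower, and Trim30a fell by 0.50 on the log2 scale (SE 0.0895, limma adjusted p = 0.0124), a call lost without wt 1 (limma adjusted p = 0.0515). The ubiquitin ligases Trim21, which recognises antibody-coated particles, and Trim25, which activates RIG-I, differed by 0.27 (limma adjusted p = 0.108) and -0.13 (0.341 by the same test).

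Some differences of the type I group were wide but did not pass, those of Isg20 and Bst2 being the widest in the group. Bst2, also called tetherin, which holds budding virions at the cell surface, read 8.83, 8.79 and 8.92 in wt and 9.12, 9.65 and 9.92 in ki (0.72, SE 0.194, limma adjusted p = 0.0502). Its ki arrays were all higher but spread over more than its wt arrays. Isg20, an exonuclease that degrades viral RNA, read 7.61, 7.63 and 6.91 in wt and 6.77, 5.84 and 6.79 in ki (-0.92, SE 0.308, limma adjusted p = 0.0958). Wt 3 came close to the ki values and ki 2 was far below the others, near the lowest detected level of that array (5.81). The Isg20 difference ran from -1.15 to -0.49 over the alternative settings. Rsad2, which encodes viperin, a producer of a chain-terminating nucleotide, read 8.29, 8.23 and 8.46 in wt and 7.88, 7.86 and 8.15 in ki (-0.37, SE 0.112, limma adjusted p = 0.0736). All its ki arrays were lower. Bst2 passed in 6 and Rsad2 in 4 of 21 alternative settings, and Isg20 in 2 of 20.

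Other antiviral effectors stayed closer to 0. Mx2, a dynamin-like GTPase, read 7.21, 7.28 and 7.16 in wt and 7.48, 7.45 and 7.50 in ki (0.26, SE 0.0726, limma adjusted p = 0.0561). Its arrays did not overlap. The 2'-5' oligoadenylate synthetase family had Oasl2 at 0.22 (limma adjusted p = 0.115), Oasl1 at -0.28 (0.231 by the same test) and Oas2 at -0.06 (0.787). Isg15, the ubiquitin-like modifier, read 10.33, 10.21 and 10.33 in wt and 10.31, 10.42 and 10.49 in ki (0.12, limma adjusted p = 0.388), and Usp18, the protease that removes it, differed by 0.03, with a 95% interval from -0.15 to 0.20. The cytosolic RNA sensors Ifih1 (MDA5) and Dhx58 (LGP2) differed by 0.35 (limma adjusted p = 0.187) and -0.19 (0.25 by the same test); Ifih1 was detected on 1 wt array and 3 ki arrays. Ifi35, a leucine-zipper protein, differed by -0.17 (limma adjusted p = 0.374).

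The IFITM proteins block virus entry at membranes. Ifitm3 read 15.33, 15.30 and 15.28 in wt and 15.26, 15.33 and 15.14 in ki, a difference of -0.06 with a 95% interval from -0.25 to 0.13. The arrays overlapped, as they did for Ifitm2 (-0.09, interval -0.28 to 0.09). The brightest Ifitm1 probe also overlapped (-0.01, interval -0.27 to 0.25). A second Ifitm1 probe, however, read 10.15, 10.30 and 10.36 in wt and 9.35, 9.49 and 9.43 in ki. Its difference was -0.85 (SE 0.0871, limma adjusted p = 0.00165 over tested probes with a gene symbol). The 2 Ifitm1 probes disagree, and which transcript each one reads was not tested.

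Ifit1, Oas1a, Oas3, Mx1 and Iigp1 were detected on no array with any of their probes. They were not well above background in either genotype and gave no difference. Of the 26 tested members without a call, 10 (38.5%) had genotypes that did not overlap, against 26.5% of all genes without a call, and 10 had an unadjusted p under 0.05, against 17.1% of those genes.

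More than 1 probe was tested for 13 members, and for 10 of these all probes had differences of the same sign. Irf9, Usp18 and Dhx58 were the exceptions, all genes that did not pass. With adjustment over tested probes with a gene symbol, Gbp3, Psmb10 and Ifit2, genes that rose, passed with each tested probe. Irf1, which also rose, passed with 3 of 4. Of all tested probes with a gene symbol 14.4% passed.

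**Figure D3:**
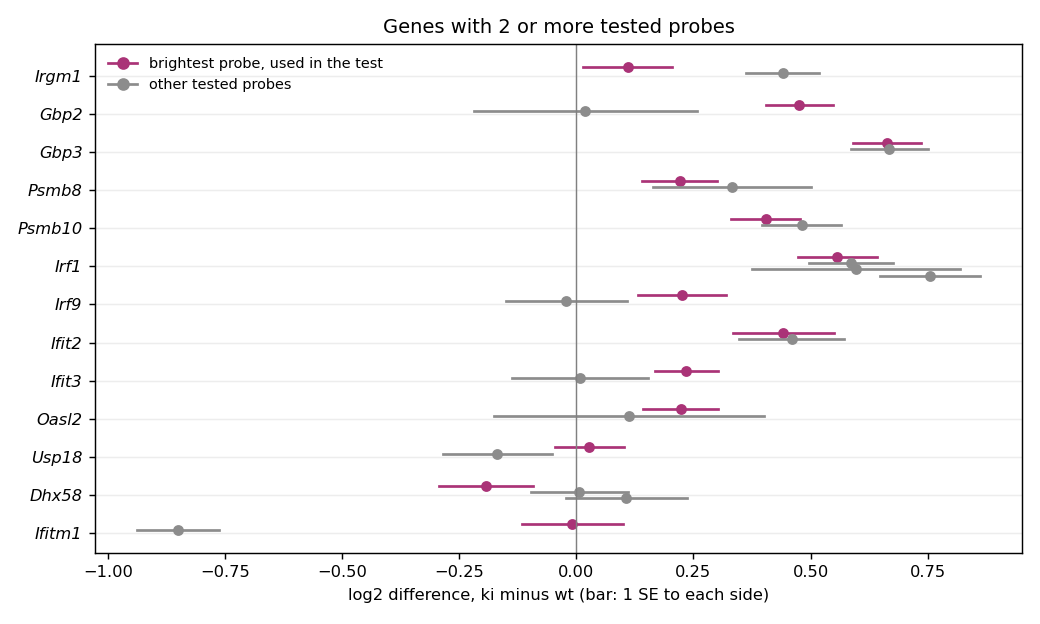
Difference between genotypes (ki minus wt, log2) for every tested probe of the 13 genes with 2 or more, with bars of 1 SE to each side; the brightest probe, used for the gene, is purple and the others grey. The 4 Irf1 probes lie between 0.56 and 0.76, while the second probes of Irgm1, Gbp2 and Ifitm1 stand away from the first.

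The steps before and beside these genes were read from further lists. Of 10 interferon ligand genes, only Ifna1 could be tested, at 6.22 in wt and 6.13 in ki (limma adjusted p = 0.767), Ifng was detected on 1 wt array and no ki array, and Ifnb1 on none. Among 13 tested genes of interferon receptors and signalling 4 passed (30.8%, against 16.2% of all genes). Jak2, a kinase of the gamma-interferon receptor, fell from 11.75, 11.86 and 11.95 in wt to 11.32, 11.25 and 11.44 in ki (-0.52, limma adjusted p = 0.0108). Socs3, an inhibitor of cytokine signalling, fell (-0.44, limma adjusted p = 0.0138). Ptpn2, a phosphatase that acts on JAK1, also fell (-0.62, limma adjusted p = 0.0287), and Ptpn6, a phosphatase abundant in leukocytes, rose (0.84, limma adjusted p = 0.00198). The kinase gene Jak1 (0.08) and the receptor chains Ifngr1 (0.07), Ifngr2 (-0.06) and Ifnar2 (-0.24) did not pass.

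Nucleic acid sensing genes had 3 of 12 tested members higher (25%, against 8.71% of all genes) and 0 lower with limma, against 1 lower at an unadjusted p under 0.05: Cgas, the cytosolic DNA sensor (0.51, limma adjusted p = 0.00438), Ikbke, a kinase that activates IRF3 (0.57, 0.0208 by the same test), and Irf5 (0.32, 0.0372). Of 29 tested further interferon-induced genes 3 rose and 1 fell (13.8%, against 16.2% of all genes), with a median of 0.19 and 25 of 29 differences positive. The share called was thus no higher than over the whole array. The genes that rose were Ifi47, another immunity-related GTPase (0.61, limma adjusted p = 0.00403), Pml, the scaffold of nuclear bodies (0.39, 0.0148 by the same test), and Ifi30, a lysosomal reductase of antigen processing (0.42, 0.0195). Ifi207 fell (-0.32, limma adjusted p = 0.0459).

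Constitutive proteasome genes gave 0 calls of 15 tested with limma and a median of 0.06. At an unadjusted limma p under 0.05, 2 were higher and 0 lower, against 30.5% of all genes in either direction. The activator subunits Psme1 and Psme2, listed there although interferon also induces them, differed by 0.26 (limma adjusted p = 0.0827) and 0.23 (0.0892 by the same test). MHC class I presentation genes gave 0 calls of 8 tested with limma (2 at an unadjusted p under 0.05, both lower) and a median of -0.13; B2m, the shared light chain, differed by 0.03 and H2-K1 by -0.06, and H2-D1 by -0.27 (limma adjusted p = 0.113).

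**Figure D4:**
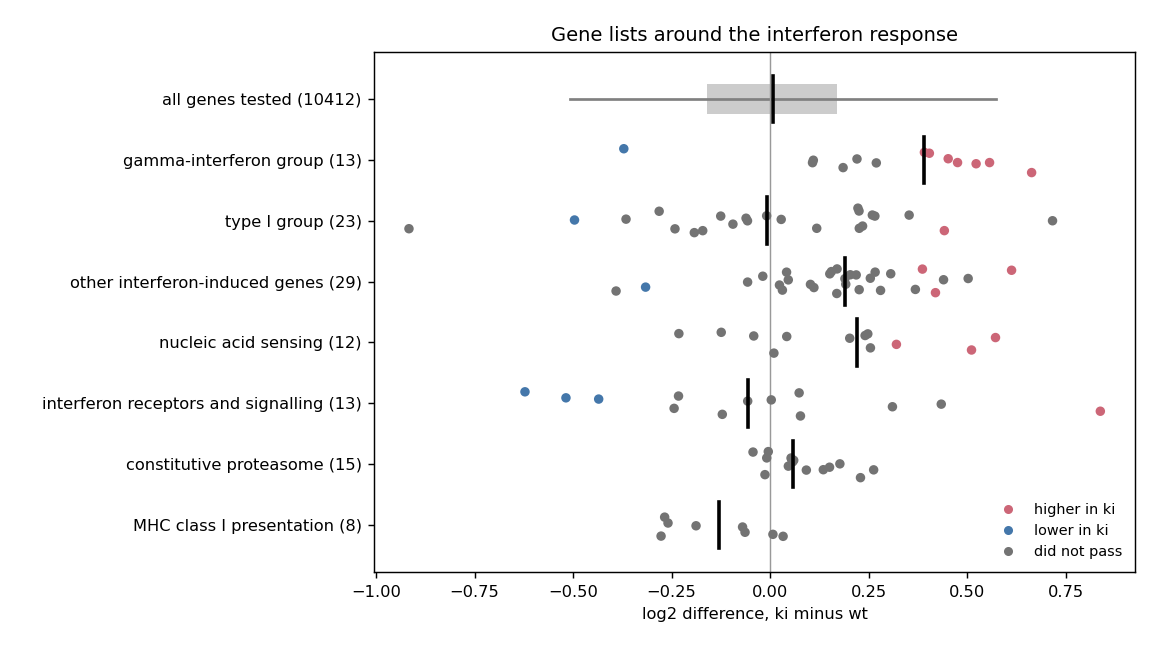
Difference between genotypes (ki minus wt, log2) for each tested gene of the 2 interferon groups and 5 related lists, 1 point per gene, coloured by whether it passed, with the list median as a black line; the top row gives the middle 50% (box) and 90% (line) of all genes tested. The median of the gamma-interferon group is 0.39, those of nucleic acid sensing and of the further interferon-induced genes are 0.22 and 0.19, and those of the other lists lie between -0.13 and 0.06.

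The contrast between the groups was followed through 21 alternative ways of processing the same arrays. The gamma-interferon median lay above the type I median in 21 of 21, by 0.32 to 0.43, and above the median of all genes by 0.28 to 0.40. The type I median stayed between -0.06 and 0.03 relative to all genes. These alternatives reuse the same 6 arrays and the same members, so they are not independent of each other. Some cannot move a median at all, such as other variance settings, the replicate block and another adjustment of p-values. Both median scalings shift all genes of an array equally and so gave the same contrast (0.38). The count of 21 therefore overstates how often the contrast was put to a test.

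**Figure D5:**
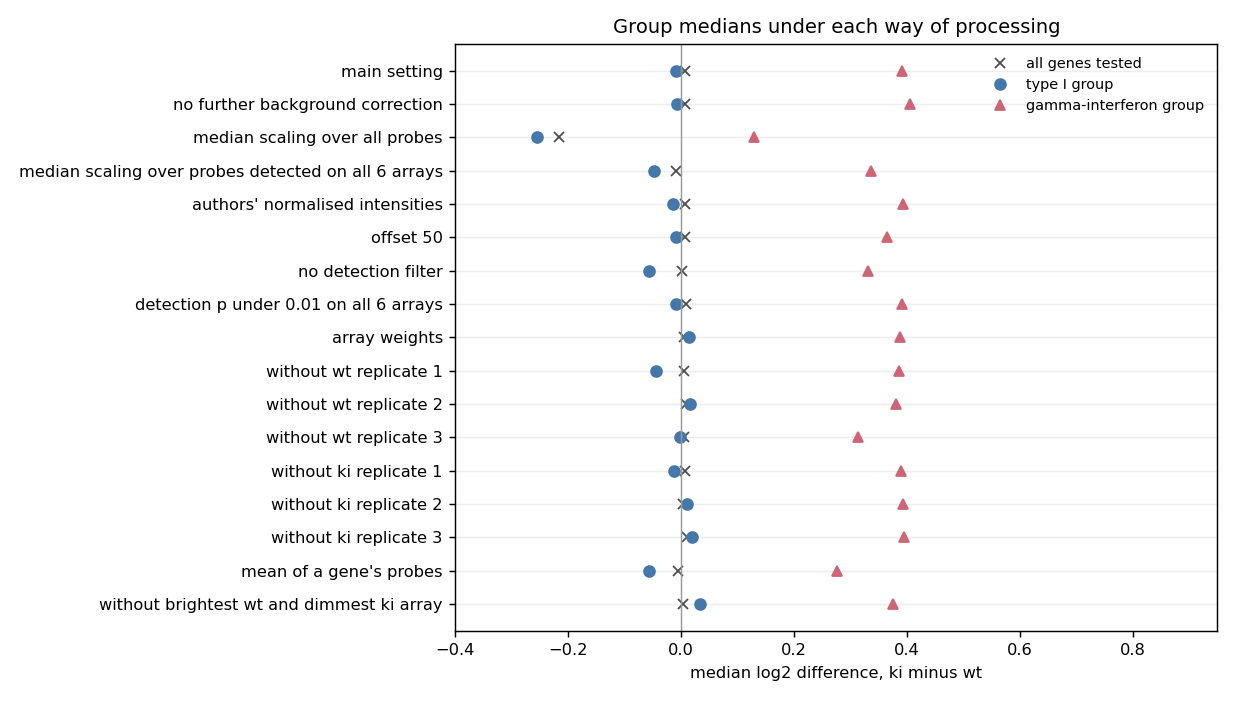
Median difference between genotypes (ki minus wt, log2) of the gamma-interferon group (triangles), the type I group (circles) and all genes tested (crosses) under each way of processing that can move it. Scaling to the median of all probes shifts all 3 to the left together, to 0.13, -0.26 and -0.22, and elsewhere the gamma-interferon median stays between 0.28 and 0.41.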

How the data were processed

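Biotin-labelled cRNA from lung fibroblast cultures (3 wt mice, 3 ki mice, passage 1) was hybridised to Illumina mouse bead arrays, per the labels. Intensity values before normalisation were deposited with the background already subtracted, since 28.59% to 32.02% of probes per array are negative, and a detection p-value stands beside each, per the file headers. The authors also deposited normalised intensities, used as an alternative. The sources used here do not name the scanner software or the authors' background and normalisation methods.

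Intensities were background-corrected in limma 3.58.1 (R 4.3.3; normexp, with negative controls inferred from detection p). An offset of 16, quantile normalisation and log2 followed; the authors' own values are linear. The 18249 probes with a detection p under 0.05 on 3 or more of 6 arrays entered 1 linear model with moderated variances and 4 residual degrees of freedom. The brightest tested probe stood for its gene, and p-values were adjusted over 10412 genes with Benjamini-Hochberg. Whether the fit ran on all tested probes or on 1 probe per gene was settled after both sets of member counts were seen. Symbols came from the array annotation, and matching through the gene identifier changed 0 of them. Promoters came from a RefSeq table of build GRCm38.p6, and plots were made in Python 3.11.15 (matplotlib 3.10.9). The quantile normalisation and the fit, but not the background correction, were tested on simulated data with few changed probes, equally up and down. That test does not bear on the choice of scaling.

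The members, gene lists and tests were chosen with earlier results of these data known. Every member that passed is named, with relatives of its family and the brightest of the rest; of other lists up to 4 passing genes with the smallest p, and of marker lists up to 3 of the highest level. Further markers, listed genes that did not pass and undetected genes were named to complete a count or after their values were seen. Eif2s3y and Xist lie outside these lists and were picked with their values in view.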

Additional observations from a re-analysis of the deposited data

How the results depend on the processing

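Of 42 genes, 36 could be tested, on 3 arrays per genotype, and dim probes give no difference. The 8 genes called higher and 2 called lower kept their direction in all 21 alternatives, though some of these cannot change a difference. Only Gbp2, Gbp3 and Irf1 passed without each single array. Scaling each array to its median over all probes gave 0 higher and 4 lower, with medians of 0.13 (gamma-interferon) and -0.26 (type I), or 0.35 and -0.04 relative to all genes; the cause was not tested. Scaling over detected probes gave a gamma-interferon median of 0.34. Without the detection filter 1 member was lower and the medians were 0.33 and -0.0574; with the mean of a gene's probes they were 0.28 and -0.0574. At an adjusted p under 0.01, 3 members were higher, 0 lower (4 at an unadjusted p under 0.05 with limma) and 733 genes passed; at 0.10, 4 members were lower. Leaving out each array in turn gave 3 to 6 members higher (3 without wt 1), 1 to 2 lower and 1011 to 1230 genes called, with medians of 0.31 (without wt 3) to 0.39 for gamma-interferon and -0.04 to 0.02 for type I. Alternatives chosen after seeing the data were omitting wt 1 and ki 2, the wt array of highest and the ki array of lowest signal, together (1 member higher, 0 lower, 3 lower at an unadjusted p under 0.05, 610 genes; the smaller number of arrays is part of this), fitting 1 probe per gene only (11 higher, 2 lower, 1883 genes) and adjusting over all tested probes (7 higher, 2 lower, 1625 genes).

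The labels do not say whether wt and ki mice of the same replicate number were paired. Deviations of same-numbered arrays correlated by 0.0203, 0.0239 and 0.0886, and those of different-numbered arrays by -0.0921 to 0.0737. Whether the arrays were paired cannot be told from these few values. With the number as a block, 7 members were higher, 1 lower and 1205 genes passed, with Igtp and Nlrc5 lost.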
